A study of Mus musculus with 6 samples.

Results

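The p53 target genes and apoptosis regulators were examined in NIH3T3, a mouse fibroblast cell line of embryonic origin, in cells overexpressing F-CircAE and in wild type cells. F-CircAE is a circular RNA, a transcript whose ends are joined, and is related to AML1-ETO, the leukaemia fusion of AML1 (RUNX1) and ETO. The list held 43 genes chosen by symbol, of which 41 had a row among the 24938 genes of each file. The remaining 2, Perp and Pmaip1, were not analysed here. RNA was sequenced from 3 libraries of F-CircAE cells and 3 libraries of wild type cells. The labels give neither the way the circular RNA was introduced nor whether the wild type cells, titled with the letter V, carried an empty vector, so the procedure and the circular RNA cannot be told apart. Nothing states that replicates are separate cultures, and the p-values then reflect only library-to-library spread, possibly technical.

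The transcription factor p53 is stabilised by DNA damage and other stress and switches on genes for growth arrest, DNA repair and cell death. Its death targets act largely through the Bcl2 family. BH3-only proteins such as Puma (encoded by Bbc3) bind the pro-survival proteins and release the effectors Bax and Bak, which open the outer mitochondrial membrane and let cytochrome c assemble the Apaf1 and caspase 9 apoptosome. Death receptors such as Fas start a second route through Fadd and caspase 8. NIH3T3 cells are known to lack the Ink4a/Arf locus while keeping p53 itself.

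Of the 34 analysed genes with a promoter window in RefSeq (GRCm38.p6, 250 bases before to 50 bases after a transcript start), 9 (26.5%) held the p53 decamer, the 10-base unit of the p53 binding site. Among all 27025 genes with a window 9.55% did. Counted by window, 20.8% of the 48 windows of the analysed genes held it, beside 8.36% of all 32851 windows. The decamer was searched as 3 purines, C, A or T at 2 positions, G and 3 pyrimidines, and reads the same on both strands. Adjacent decamers with 0 or 1 base between them and at most 2 mismatches in all stood in the windows of Ccng1 and Bax. These are 2 of the 34 genes (5.88%), beside 0.807% of all genes with a window and 0.682% of all windows. The windows of Ccng1 and Bax are shown because no other analysed gene held such a pair and because both led their role groups in level. The 250 bases before the start are printed 5′ to 3′ on the gene's strand, with the paired decamers in capitals, from chr11:40755287-40755536 for Ccng1 and chr7:45466899-45467148 for Bax, both on the minus strand.
Ccng1: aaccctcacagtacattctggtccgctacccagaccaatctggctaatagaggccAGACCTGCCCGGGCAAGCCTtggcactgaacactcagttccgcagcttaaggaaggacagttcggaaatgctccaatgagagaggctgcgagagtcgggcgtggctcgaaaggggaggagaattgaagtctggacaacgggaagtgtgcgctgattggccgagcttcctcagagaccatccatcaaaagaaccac
Bax: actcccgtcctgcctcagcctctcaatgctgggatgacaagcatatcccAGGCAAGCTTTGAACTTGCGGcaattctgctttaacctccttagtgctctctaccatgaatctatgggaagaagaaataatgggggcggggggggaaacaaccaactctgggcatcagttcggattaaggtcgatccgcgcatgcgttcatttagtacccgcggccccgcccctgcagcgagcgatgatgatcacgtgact
The Ccng1 pair lay 195 to 176 bases before the start with 1 mismatch, and the Bax pair 201 to 181 bases before it with 2 mismatches. Single decamers are given for the p53-linked genes that follow, since their levels are compared below.
Aen: GGGCTTGTCC
Ei24: GGGCATGCCC
Gadd45a: GGGCTAGCCC
Sesn1: AAGCTTGTTT
Polk: GAACTAGCCT
They lie at chr7:78895937-78895946 (Aen, plus strand), chr9:36797335-36797344 (Ei24, minus), chr6:67037438-67037447 (Gadd45a, minus), chr10:41887266-41887275 (Sesn1, plus) and chr13:96519409-96519418 (Polk, minus). Bmf and Birc2 held one as well. The windows of Sesn1, Polk and Bmf belong to transcript starts inside the annotated gene, away from its 5′ end. The Aen decamer lies before a later start of the gene and after an earlier start, and the Birc2 decamer lies after the start. A match describes these letters and is no measure of p53 binding.

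The libraries are described before the results because 1 of each group stood apart, F-CircAE replicate 1 and wild type replicate 3. The reads behind the deposited FPKM values (reads per kilobase and per unit of depth, here with library size factors as the depth) numbered 16969915 to 21843880 per library. Wild type replicates 1 and 2 differed little more than by counting error, with a chi-square per gene of 1.45 where counting error alone gives 1. The other 14 pairs of libraries ran from 5.01 to 24.6 per gene. Over the p53 and apoptosis genes alone the values were 1.66 and 7.87 to 45.8. A chi-square grows with read number, so genes with many reads, such as Ccng1 with 48556 in all, weigh most. The 2 sets of values therefore do not compare the spread of these genes with that of all genes. Wild type replicate 3 was at 20.7 and 20.9 per gene from the other wild type libraries and at 8.55 to 14.1 from the F-CircAE libraries. F-CircAE replicate 1 was at 14.5 and 17.9 from F-CircAE replicates 2 and 3, which were at 5.01 from each other. If wild type replicates 1 and 2 share a source, which the labels do not say, each wild type SD given with n = 3 rests on 2 samples. With both averaged and counted as 1 sample, none of the p53 and apoptosis genes passed the test described below (smallest limma adjusted p = 0.9999). Of 10 listed fibroblast markers 9 were analysed, and each averaged above 1 FPKM. The summed level of these 9 ran from 1767 to 2170.0 FPKM in F-CircAE and from 1966 to 2486 FPKM in wild type, lowest in F-CircAE replicate 1 and wild type replicate 3. Its part in the values of these libraries was not tested. The summed level of the 5 analysed epithelial markers was at most 8.81 FPKM, and that of the 5 blood markers at most 6.87 FPKM. The 3 endothelial markers summed to at most 1.14, the 3 neural to at most 11.9 (mainly Tubb3) and the single muscle marker Des to at most 2.33 FPKM.

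No p53 target or apoptosis regulator passed the test between F-CircAE and wild type cells. All 12222 genes that exceeded 1 FPKM in 3 or more libraries were tested with limma on log2(FPKM + 1), and a call needed a Benjamini-Hochberg adjusted p below 0.05. Of the 41 genes 39 passed the filter, and 0 of 39 were called, beside 0% of all tested genes. The smallest adjusted p among them was 0.842 (limma). At an unadjusted p below 0.05 there were 2 of 39 (5.13%), Gadd45a and Bak1, beside 5.17% of all tested genes. Limma-voom on recovered reads also called 0 genes, and 0 of the 39. The groups did not overlap in 6 of 39 genes (15.4%), beside 11.5% of all tested genes. In 3 of these all F-CircAE libraries were higher (7.69%, beside 6.81%) and in 3 all were lower (7.69%, beside 4.69%). None of these counts is more than 2 genes above its background share.

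**Figure D1:**
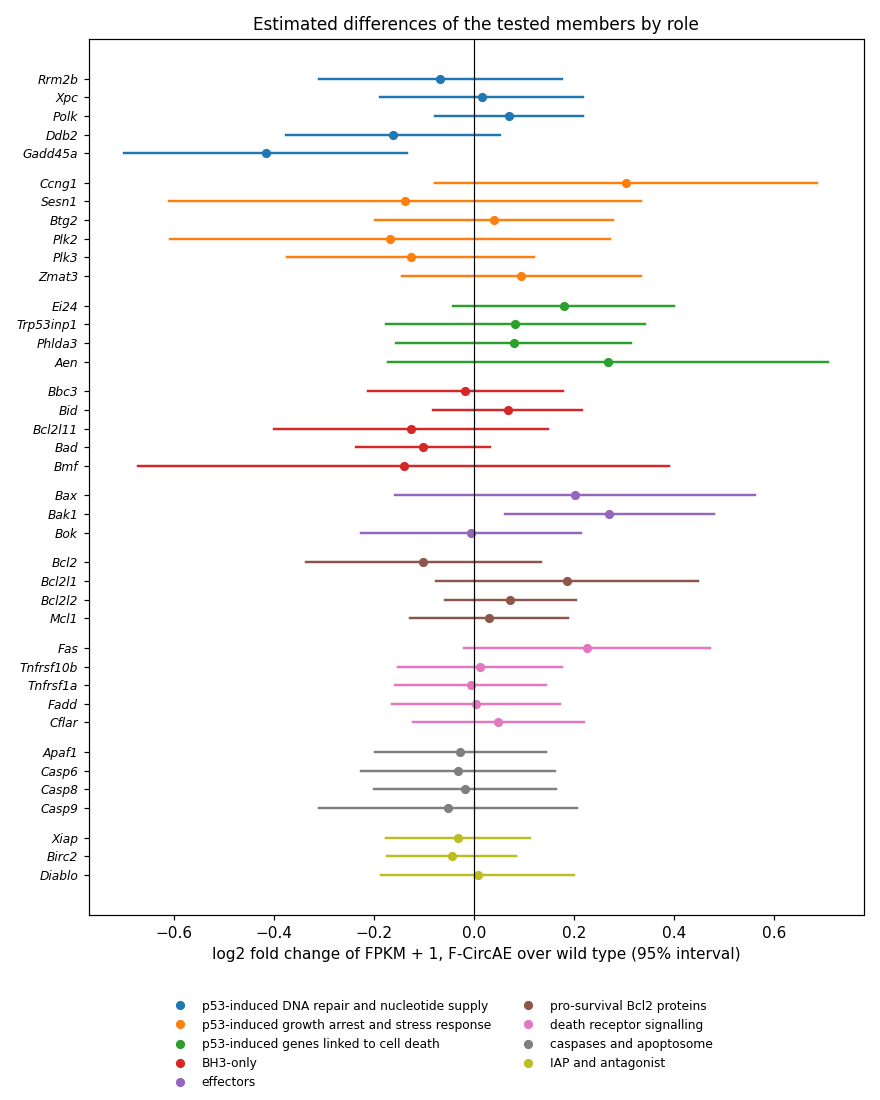
Estimated log2 fold change of FPKM + 1, F-CircAE over wild type, for the 39 tested genes (horizontal axis), with 95% intervals from limma, coloured by role. The intervals of Gadd45a (below 0) and Bak1 (above 0) leave out 0, and both had an adjusted p of 0.842.

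Estimates were small in both directions. The median log2 fold change of the 39 genes was 0.0047, beside 0.0084 over all tested genes, and 20 of 39 estimates (51.3%) lay above 0, beside 53.2% of all tested genes. After rescaling the libraries to equal FPKM sums 13 of 39 (33.3%) lay above 0 with a median of -0.048, beside 32.9% and a median of -0.047 over all tested genes, so the shift was common to all genes. The lowest estimate was -0.42, in Gadd45a, and the highest 0.30, in Ccng1. The widest 95% intervals over the 39 genes reached -0.70 and 0.71 on the log2 scale. In bulk RNA, fewer cells expressing a gene and less RNA per cell cannot be told apart.

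The growth arrest and stress response targets of p53 were led by Ccng1 and Plk2. Ccng1, which encodes cyclin G1 (chromosome 11, 40748552 to 40755311, mm10), stood at 146, 113 and 133 FPKM in F-CircAE replicates 1, 2 and 3, against 92.7, 93.5 and 133 FPKM in wild type replicates 1, 2 and 3. All F-CircAE libraries lay above wild type replicates 1 and 2, and wild type replicate 3 lay among them. The means were 130 ± 16.2 and 107 ± 23.3 FPKM (SD, n = 3 each), and the log2 fold change was 0.30 (SE 0.16) at a limma adjusted p of 0.842. Without wild type replicates 1 and 2 the estimate was -0.039, and without wild type replicate 3 it was 0.48 (limma adjusted p = 0.222).

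Plk2, a polo-like kinase gene, was at 94.7, 65.9 and 71.5 FPKM in F-CircAE, against 76.9, 75.6 and 109 FPKM in wild type. The highest library of each group was F-CircAE replicate 1 and wild type replicate 3, and the groups overlapped (log2 fold change -0.17, limma adjusted p = 0.875). The estimate was -0.32 without F-CircAE replicate 1 and 0.0041 without wild type replicate 3. Sesn1, which encodes a sestrin that restrains mTORC1 signalling, was at 7.29, 11.8 and 10.5 FPKM in F-CircAE, against 11.9, 12.5 and 8.38 FPKM in wild type. Here the same 2 libraries were the lowest of their groups. Its estimate was -0.14 (95% interval -0.61 to 0.33), 0.045 without F-CircAE replicate 1 and -0.30 without wild type replicate 3.

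The other growth arrest genes varied less. Btg2, an antiproliferative gene, averaged 14.1 ± 0.662 FPKM in F-CircAE and 13.8 ± 1.89 FPKM in wild type (SD, n = 3 each). Zmat3, which encodes an RNA-binding protein, averaged 11.1 ± 1.10 and 10.4 ± 1.20 FPKM in F-CircAE and wild type, and Plk3 averaged 6.50 ± 0.948 and 7.16 ± 0.508 FPKM in the same order (SD, n = 3 each). The estimates of the 6 genes of this role split 3 above and 3 below 0, with a median of -0.043.

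Among the DNA repair and nucleotide supply genes, Gadd45a had the lowest estimate of all the genes examined. It encodes a stress sensor that acts in repair and cell cycle arrest (chromosome 6, 67035096 to 67037457). Its levels were 11.7, 15.6 and 15.2 FPKM in F-CircAE, against 17.7, 18.4 and 21.3 FPKM in wild type. Every F-CircAE library lay below every wild type library, with F-CircAE replicate 1 the lowest and wild type replicate 3 the highest. The means were 14.2 ± 2.13 and 19.1 ± 1.93 FPKM (SD, n = 3 each), with a log2 fold change of -0.42 (SE 0.12, 95% interval -0.70 to -0.13). The difference did not pass (limma adjusted p = 0.842). It was -0.29 without F-CircAE replicate 1, -0.34 without wild type replicate 3 and -0.57 without wild type replicates 1 and 2. The gene rests on 350 to 721 reads per library, and 19.1% of its exon bases overlap E230016M11Rik, a noncoding gene on the other strand at 0.930 FPKM.

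The other repair genes stayed within narrow ranges. Ddb2, a damage recognition factor of nucleotide excision repair, averaged 4.92 ± 0.562 FPKM in F-CircAE and 5.61 ± 0.412 FPKM in wild type (SD, n = 3 each). Its exons overlap by 23.8% with Acp2 on the other strand, which was at 9.24 FPKM, so its own level is uncertain where strand was not used. Xpc, which acts in the same pathway, averaged 5.27 ± 0.489 and 5.20 ± 0.427 FPKM in F-CircAE and wild type. Polk, a translesion DNA polymerase gene, averaged 12.4 ± 0.794 and 11.8 ± 0.169 FPKM in F-CircAE and wild type. Rrm2b, the p53-inducible subunit of ribonucleotide reductase, averaged 5.68 ± 0.388 and 6.03 ± 0.920 FPKM in F-CircAE and wild type (SD, n = 3 each), with its highest value of 7.09 FPKM in wild type replicate 3.

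In the role group of p53 targets linked to cell death, all 4 analysed genes had estimates above 0, beside 53.2% of all tested genes. Their median was 0.13, and none passed. Other p53 targets were placed in other role groups, among them Fas and Bbc3, with estimates of 0.23 and -0.017. Phlda3, which encodes an inhibitor of Akt (chromosome 1, 135766119 to 135769136), was at 126, 128 and 130 FPKM in F-CircAE, against 112, 112 and 141 FPKM in wild type. The F-CircAE libraries lay close together between wild type replicates 1 and 2 on one side and wild type replicate 3 on the other. The estimate was 0.080 (limma adjusted p = 0.883), -0.14 without wild type replicates 1 and 2, and 0.024 to 0.19 with wild type replicate 2 or 3 left out.

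Aen, which encodes an apoptosis-enhancing nuclease (chromosome 7, 78895854 to 78911209), was at 17.3, 12.9 and 14.2 FPKM in F-CircAE, against 11.2, 9.69 and 16.0 FPKM in wild type. Its ratio of the highest to the lowest library, 1.79, was the widest among the 15 p53-induced genes after Gadd45a at 1.82. Its estimate of 0.27 (95% interval -0.17 to 0.71) was -0.12 without wild type replicates 1 and 2, and ran from 0.13 (without wild type replicate 2) to 0.46 (without wild type replicate 3) with 1 library left out. Ei24, which encodes a protein of the endoplasmic reticulum, averaged 24.7 ± 2.30 and 21.7 ± 2.08 FPKM in F-CircAE and wild type, and 6.66% of its exon bases overlap an antisense gene. Trp53inp1, which encodes a stress-induced nuclear protein, averaged 7.97 ± 1.17 and 7.44 ± 0.623 FPKM in F-CircAE and wild type (SD, n = 3 each). Without wild type replicates 1 and 2 the median of these 4 genes was -0.076.

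**Figure D2:**
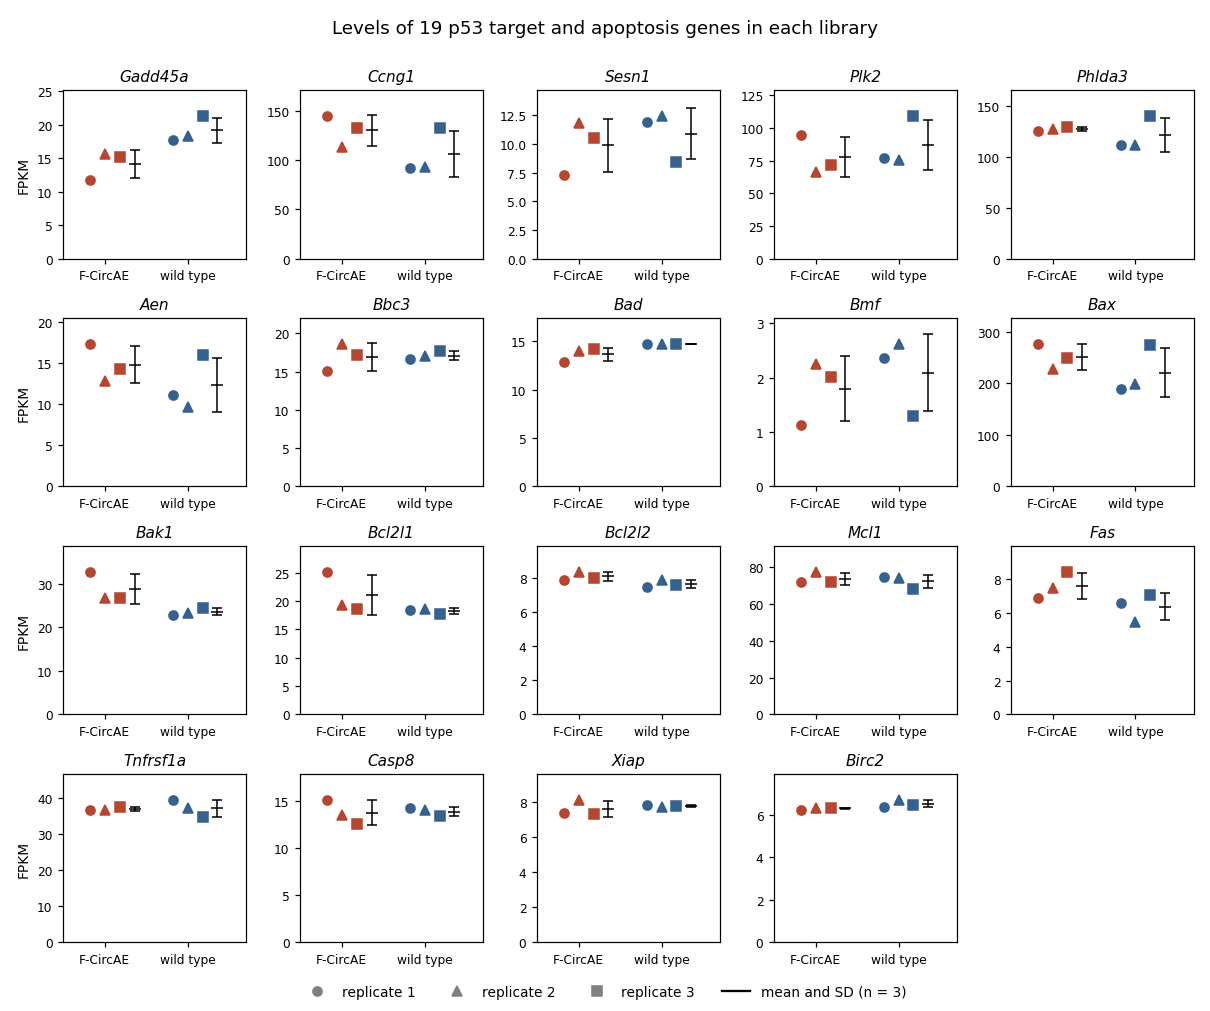
FPKM (vertical axes, from 0) in each F-CircAE and wild type library of the 19 genes with values given for every library. Symbols mark replicates 1 to 3 and black bars the mean and SD (n = 3). Gadd45a and Bak1 separate the groups by the widest margins, and in Ccng1, Bax, Phlda3 and Aen wild type replicate 3 lies with the F-CircAE libraries or above them.

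The Bcl2 family was represented at the RNA level mainly by the effector Bax and the pro-survival Mcl1. Bax, which permeabilises the mitochondrial outer membrane (chromosome 7, 45461697 to 45466898), was at 277, 228 and 249 FPKM in F-CircAE, against 189, 198 and 275 FPKM in wild type. As with Ccng1, all F-CircAE libraries exceeded wild type replicates 1 and 2, while wild type replicate 3 lay among them. The means were 251 ± 24.8 and 221 ± 47.2 FPKM (SD, n = 3 each), with a log2 fold change of 0.20 (95% interval -0.16 to 0.56). The estimate was 0.10 without wild type replicate 1, 0.13 without F-CircAE replicate 1, 0.37 without wild type replicate 3 (limma adjusted p = 0.238) and -0.13 without wild type replicates 1 and 2. On the same strand, 12.2% of the exon bases of Bax overlap Gm45808. The level of Bax per length depends on the length used. The deposited values fit a length of 869 bases, while the annotated exons cover 1576 bases, at which Bax would average 139 FPKM in F-CircAE and 122 FPKM in wild type.

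Bak1, the partner effector (chromosome 17, 27019810 to 27029009), was at 32.7, 26.7 and 26.8 FPKM in F-CircAE, against 22.9, 23.3 and 24.4 FPKM in wild type. The groups did not overlap, and wild type replicate 3 lay close to the other wild type libraries. The means were 28.7 ± 3.45 and 23.5 ± 0.798 FPKM (SD, n = 3 each). The log2 fold change of 0.27 (SE 0.09, 95% interval 0.06 to 0.48) did not pass (limma adjusted p = 0.842). It was 0.18 without F-CircAE replicate 1 and 0.22 without wild type replicates 1 and 2. Exons of Bak1 overlap Ggnbp1 on the other strand over 18.2% of their bases, and Ggnbp1 was at 0.483 FPKM. Bok, the third effector-like gene, averaged 14.9 ± 1.54 FPKM in F-CircAE and 14.9 ± 1.25 FPKM in wild type.

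Pro-survival transcripts were led by Mcl1, a short-lived protein that holds Bak and BH3-only proteins in check. It was at 71.8, 77.6 and 72.2 FPKM in F-CircAE, against 74.6, 74.0 and 68.3 FPKM in wild type. The groups overlapped, and the 95% interval of the difference between these libraries was -0.13 to 0.19 on the log2 scale. Bcl2l1, which encodes Bcl-xL, was at 25.2, 19.3 and 18.7 FPKM in F-CircAE, against 18.4, 18.6 and 17.7 FPKM in wild type. Only F-CircAE replicate 1 stood clear of the other libraries, and the lowest F-CircAE library exceeded the highest wild type library by a small margin (log2 fold change 0.19, limma adjusted p = 0.843). Without F-CircAE replicate 1 the estimate was 0.057.

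Bcl2l2, which encodes Bcl-w, was at 7.90, 8.37 and 8.03 FPKM in F-CircAE, against 7.46, 7.87 and 7.62 FPKM in wild type. These groups also did not overlap, by a margin smaller than the spread within either group (log2 fold change 0.073, limma adjusted p = 0.847). On the same strand, 13.3% of the exon bases of Bcl2l2 overlap Gm20521. Bcl2 itself was the least abundant of the 4, at 3.10 ± 0.325 FPKM in F-CircAE and 3.40 ± 0.399 FPKM in wild type (SD, n = 3 each). The median estimate of the 4 genes was 0.052, and after rescaling to equal FPKM sums it was -0.0090, beside -0.047 over all tested genes.

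BH3-only transcripts were low to moderate. Bbc3, the p53 target that encodes Puma, led them at 15.1, 18.7 and 17.1 FPKM in F-CircAE, against 16.6, 17.0 and 17.7 FPKM in wild type. The wild type values lay within the range of the F-CircAE values (log2 fold change -0.017, 95% interval -0.21 to 0.18). Bad, a BH3-only protein controlled by survival kinases, was at 12.9, 13.9 and 14.1 FPKM in F-CircAE, against 14.7 FPKM in each wild type library. All F-CircAE libraries were lower (estimate -0.10, limma adjusted p = 0.842, and -0.063 without F-CircAE replicate 1), and 20.5% of the exon bases of Bad overlap Gpr137 on the other strand at 6.35 FPKM.

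Bmf, a BH3-only gene linked to loss of attachment, was at 1.12, 2.26 and 2.01 FPKM in F-CircAE, against 2.35, 2.62 and 1.29 FPKM in wild type. F-CircAE replicate 1 and wild type replicate 3 were the low libraries, as for Sesn1, and Bmf had the widest ratio of highest to lowest library of the 39 genes, 2.33. It rests on 100 to 294 reads per library, and its estimate of -0.14 was 0.046 without F-CircAE replicate 1 and -0.34 without wild type replicate 3. Bcl2l11, which encodes Bim, averaged 5.20 ± 0.753 and 5.75 ± 0.676 FPKM in F-CircAE and wild type, and Bid, which links caspase 8 to mitochondria, averaged 8.70 ± 0.472 and 8.25 ± 0.319 FPKM (SD, n = 3 each). Bid shares 17.7% of its exon bases with Bcl2l13 on the other strand, at 9.49 FPKM. Bik did not pass the filter, with 0, 1 and 2 reads in F-CircAE and 1, 1 and 0 reads in wild type. The median estimate of the 5 tested genes was -0.10, and it was 0.042 without wild type replicates 1 and 2.

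Summed over each class, effector transcripts came to 325, 270 and 289 FPKM in F-CircAE, against 226, 235 and 316 FPKM in wild type. Pro-survival transcripts came to 108, 109 and 102 FPKM in F-CircAE, against 104, 104 and 96.6 FPKM in wild type. BH3-only transcripts came to 42.6, 48.6 and 47.9 FPKM in F-CircAE, against 48.6, 48.2 and 47.0 FPKM in wild type. The ratio of effector to pro-survival transcripts was thus 3.02, 2.48 and 2.84 in F-CircAE and 2.17, 2.26 and 3.27 in wild type, and the groups overlapped because of wild type replicate 3. With Bax at its annotated length the ratio ran from 1.55 to 1.87 in F-CircAE and from 1.36 to 1.99 in wild type. Bax made up 83.5% to 87.1% of the effector sum over the 6 libraries, and Mcl1 66.7% to 71.6% of the pro-survival sum.

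**Figure D3:**
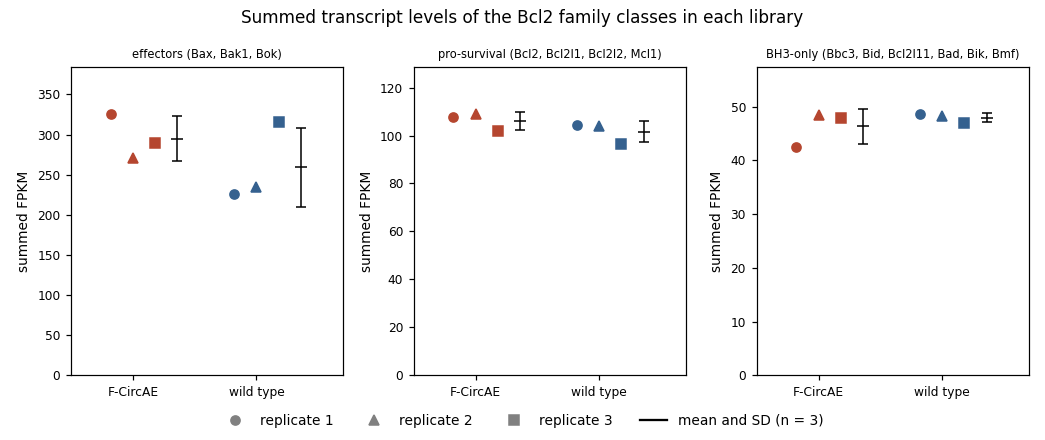
Summed FPKM (vertical axes, from 0) of the effector, pro-survival and BH3-only genes in each F-CircAE and wild type library, with the mean and SD (n = 3). Effector sums run from 226 to 325 FPKM over the 6 libraries, with wild type replicate 3 at 316, while the other classes vary less.

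Death receptor genes differed little. Fas, a p53 target and the receptor for Fas ligand (chromosome 19, 34290666 to 34327772), was at 6.85, 7.46 and 8.41 FPKM in F-CircAE, against 6.54, 5.46 and 7.02 FPKM in wild type. The groups overlapped only through F-CircAE replicate 1 and wild type replicate 3, and the estimate was 0.23 (95% interval -0.02 to 0.47, limma adjusted p = 0.842). It was 0.14 without wild type replicate 2 and 0.093 without wild type replicates 1 and 2. Tnfrsf1a, the main TNF receptor, was at 36.6, 36.6 and 37.6 FPKM in F-CircAE, against 39.5, 37.2 and 34.8 FPKM in wild type, with the F-CircAE values inside the wild type range.

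Tnfrsf10b, the mouse TRAIL receptor, averaged 12.5 ± 0.621 FPKM in F-CircAE and 12.4 ± 0.854 FPKM in wild type. The adaptor Fadd averaged 3.50 ± 0.202 and 3.48 ± 0.140 FPKM in F-CircAE and wild type. Cflar, which encodes the caspase 8 inhibitor c-FLIP, averaged 11.2 ± 1.01 and 10.7 ± 0.269 FPKM in F-CircAE and wild type (SD, n = 3 each). The 95% intervals of these 3 genes lay within -0.16 and 0.22 on the log2 scale.

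The estimates of the caspases and Apaf1 were small, all 4 between -0.051 and -0.017. Casp8, the initiator of the death receptor route, was at 15.2, 13.6 and 12.6 FPKM in F-CircAE, against 14.3, 14.0 and 13.4 FPKM in wild type, so the wild type values fell inside the F-CircAE range. Casp9, the initiator of the mitochondrial route, averaged 3.55 ± 0.443 and 3.72 ± 0.480 FPKM in F-CircAE and wild type. Apaf1, its scaffold, averaged 7.26 ± 0.526 and 7.41 ± 0.430 FPKM, and the effector Casp6 averaged 2.95 ± 0.102 and 3.05 ± 0.294 FPKM, each in F-CircAE and wild type (SD, n = 3 each).

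Xiap, which inhibits caspases directly, was at 7.37, 8.13 and 7.30 FPKM in F-CircAE, against 7.85, 7.74 and 7.76 FPKM in wild type. Birc2, which encodes the ubiquitin ligase cIAP1, was at 6.24, 6.32 and 6.31 FPKM in F-CircAE, against 6.37, 6.71 and 6.48 FPKM in wild type. Its groups did not overlap, yet the log2 fold change was -0.044 (limma adjusted p = 0.883), and -0.026 without wild type replicate 2. Diablo, the mitochondrial antagonist of these inhibitors, averaged 6.42 ± 0.541 and 6.38 ± 0.496 FPKM in F-CircAE and wild type (SD, n = 3 each). Exons of Diablo overlap B3gnt4 on the other strand over 21.5% of their bases and Gm49027 on the same strand over 19.3%. Birc3, which encodes cIAP2, did not pass the filter. Its reads numbered 20, 15 and 22 in F-CircAE and 45, 48 and 17 in wild type, with wild type replicate 3 again among the F-CircAE values.

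The libraries differed in a way the groups do not explain. In 17 of 39 genes (43.6%) wild type replicates 1 and 2 both lay on one side of all F-CircAE libraries, beside 39.7% of all tested genes. They lay below in Fas, Ei24, Bax, Bak1, Bcl2l1, Bcl2l2, Ccng1, Phlda3 and Aen, and above in Bcl2l11, Bad, Bmf, Casp6, Birc2, Sesn1, Gadd45a and Ddb2. In 11 of these 17 (64.7%) wild type replicate 3 did not lie on that side, beside 71.0% of the 4851 such genes among all tested genes. The 6 genes in which it did were Bak1, Bcl2l1, Bcl2l2, Bad, Birc2 and Gadd45a, by definition the 6 whose groups do not overlap. F-CircAE replicate 1 was the highest library in 10 of the 39 genes (25.6%, beside 26.2% of all tested genes) and the lowest in 15 (38.5%, beside 25.2%). The highest library was at least 1.5 times the lowest in 7 of 39 genes (17.9%), beside 22.3% of all tested genes. No batch is given in the labels, so none could be tested.

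**Figure D4:**
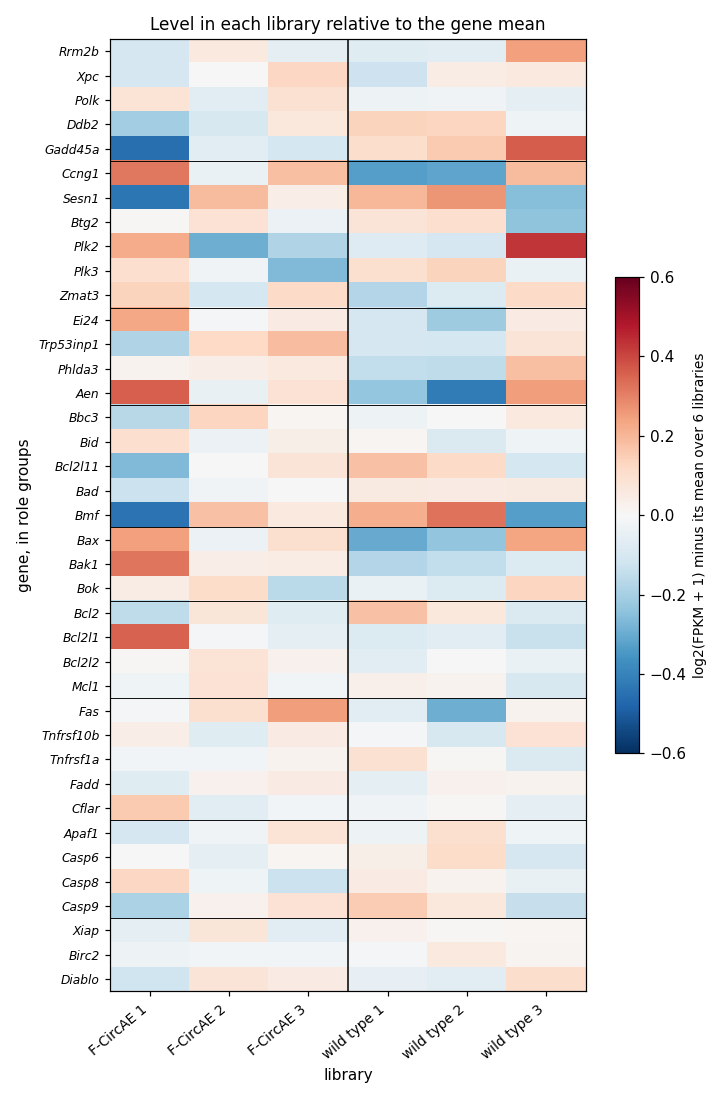
Level of each of the 39 tested genes in each library, as log2(FPKM + 1) minus the gene's mean over the 6 libraries (colour, red higher and blue lower), with genes in role groups separated by lines. In Ccng1, Aen and Bax wild type replicates 1 and 2 are blue and wild type replicate 3 is red, as are F-CircAE replicates 1 and 3.

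Other genes of the p53 pathway were read from a separate list of 20, of which 18 were analysed and 16 tested. None passed (limma, 0 of 16 in each direction, and 0 at an unadjusted p below 0.05), and limma-voom also called 0. Estimates lay above 0 in 13 of the 16, beside 53.2% of all tested genes, with a median log2 fold change of 0.079. After rescaling to equal FPKM sums they lay above 0 in 11 of 16, beside 32.9% of all tested genes. Without wild type replicates 1 and 2 they lay above 0 in 4 of 16, beside 52.8% of all tested genes, with a median of -0.10. That fit rests on wild type replicate 3 alone. Trp53, which encodes p53, was at 40.2, 38.3 and 35.7 FPKM in F-CircAE, against 37.3, 36.9 and 39.96 FPKM in wild type, with overlapping groups.

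Mdm2, the p53 target that encodes its ubiquitin ligase, was at 35.5, 32.5 and 39.2 FPKM in F-CircAE, against 26.1, 25.9 and 43.05 FPKM in wild type. Cdkn1a, which encodes the cell cycle inhibitor p21, was at 151, 143 and 156 FPKM in F-CircAE, against 127, 130 and 165 FPKM in wild type. For both, wild type replicate 3 was the highest of all 6 libraries and wild type replicates 1 and 2 the lowest. Wild type replicates 1 and 2 lay below every F-CircAE library in 7 of the 16 genes (43.8%, beside 21.8% of all tested genes), namely Mdm2, Cdkn1a, Sesn2, Eda2r, Gtse1, Triap1 and Ckap2. Wild type replicate 3 was not below them in any of the 7, beside 68.7% of such genes among all tested genes. The reverse, wild type replicates 1 and 2 above every F-CircAE library, held in 1 of the 16, Dram1 (6.25%, beside 17.9% of all tested genes). The 2 of the 16 with the smallest p were Triap1 and Ckap2, with log2 fold changes of 0.15 and 0.17 (limma adjusted p = 0.842 and 0.843). Cdkn2a was not analysed here.

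**Figure D5:**
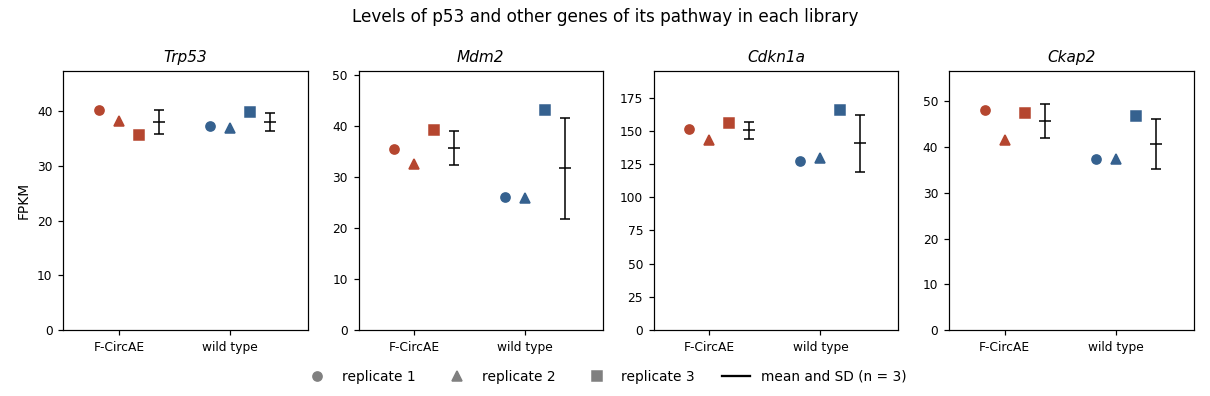
FPKM (vertical axes, from 0) of Trp53, Mdm2, Cdkn1a and Ckap2 in each F-CircAE and wild type library, with the mean and SD (n = 3). The groups overlap in each of these genes. In Mdm2, Cdkn1a and Ckap2 wild type replicates 1 and 2 lie below every F-CircAE library and wild type replicate 3 does not.

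A second list held 26 other apoptosis genes, of which 25 were analysed and 19 tested, and again none passed (limma, 0 of 19 in each direction, and 0 at an unadjusted p below 0.05), and limma-voom also called 0. Estimates lay above 0 in 13 of 19, beside 53.2% of all tested genes, with a median of 0.060. After rescaling to equal FPKM sums they lay above 0 in 10 of 19, beside 32.9% of all tested genes. Without F-CircAE replicate 1 the median was -0.00096. Dffb, a nuclease that cuts DNA in dying cells, was at 1.53, 1.64 and 1.39 FPKM in F-CircAE, against 1.73, 1.99 and 2.11 FPKM in wild type (log2 fold change -0.22, limma adjusted p = 0.842). Birc6, a large inhibitor of apoptosis, was at 10.7, 9.86 and 10.01 FPKM in F-CircAE, against 9.66, 9.68 and 9.22 FPKM in wild type (log2 fold change 0.089, limma adjusted p = 0.843). The groups did not overlap in 3 of 19 genes, beside 11.5% of all tested genes. These were Dffb, Birc6 and Tradd, a death receptor adaptor gene named after its values were seen (estimate 0.077, limma adjusted p = 0.843). The ligands Fasl, Tnfsf10 and Tnf did not pass the filter, with at most 0.286 FPKM in any library.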

How the data were processed

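RNA sequencing of 6 NIH3T3 libraries was used, grouped by genotype label with replicate numbers from the titles. The authors deposited FPKM values per Ensembl gene, per the file headers. The build was mm10, per the submitters' processing notes. No label or header names the aligner, counter, strand use or annotation. Symbols and coordinates came from GENCODE M21, which named 24816 of 24938 IDs. Promoter sequences came from RefSeq. The low FPKM values are whole multiples of a step, from which reads were recovered, within 0.01 reads, with the annotated exon length for 19832 genes (79.5%) and with a searched length for 5106. The library scales equal median-of-ratios size factors. Recovered reads cover counting error only. Robust, trend-moderated limma (3.58.1, under R 4.3.3) was run with a pseudocount of 1 and group as the only term. Fold changes on log2(FPKM + 1) understate changes of low genes.

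The members and lists were chosen with earlier results of these data known. Values in every library are given for the highest gene of each of 9 roles, genes whose groups do not overlap, genes with an unadjusted p below 0.05 and genes with a ratio of at least 1.5 between libraries. Leaving out wild type replicates 1 and 2 together was chosen after seeing the data, and a lone wild type library is then assumed to vary like the F-CircAE libraries.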

Additional observations from a re-analysis of the deposited data

How the results depend on the processing

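Of 39 genes, 28 changed the sign of their estimate in at least 1 of the 15 alternatives other than rescaling, 18 of them when 1 library was left out. The 11 that kept it in all 17, rescaling included, were Fas, Ei24, Bid, Bak1, Bcl2l1, Bcl2l2, Bad, Birc2, Gadd45a, Ddb2 and Plk3. Some of the 17 could not change a sign. The replicate block (a term for replicate number) and the changes of the filter leave each estimate as it is. The filter at FPKM above 5 kept only 34 of the 39 genes. Array weights gave 2241 calls among all genes and 7 among the 39 (17.9%, beside 18.3% of all genes), namely Fas (0.29), Bak1 (0.21), Ccng1 (0.30), Phlda3 (0.18), Gadd45a (-0.24), Trp53inp1 and Ddb2, with Bbc3 at 0.11, Xiap at 0.035 and the IAP median at 0.035. These weights are estimated from the same libraries, in which wild type replicates 1 and 2 differed little more than by counting error and may share a source. The 7 calls are therefore not taken as differences. No alternative but array weights called any of the 39. The smallest adjusted p among them ran from 0.222 to 0.9998 (limma) when single libraries were left out, and all tested genes then gave 0 to 2 calls.

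Rescaling to equal FPKM sums gave 13 estimates above 0 and medians of -0.048 over all 39 genes, -0.10 for growth arrest, -0.0090 for pro-survival, -0.046 for death receptor and -0.089 for IAP genes, with Mcl1 at -0.034, beside -0.047 over all tested genes. Rescaling to the upper quartile gave a median of -0.015 over all 39, beside -0.013 over all tested genes. Both shifts are common to all genes. With wild type replicates 1 and 2 averaged Tnfrsf1a was at 0.016. With both left out the median was -0.021 over all 39 and -0.076 for the cell death role group of p53 targets. It was 0.042 for BH3-only, -0.13 for effector, 0.084 for death receptor and 0.059 for caspase genes. Single estimates were then -0.13 for Bax, 0.26 for Bmf, 0.034 for Casp8, 0.085 for Tnfrsf1a, -0.039 for Ccng1, 0.19 for Sesn1, -0.14 for Phlda3 and -0.12 for Aen. The cause was not tested.

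Leaving out 1 library at a time, medians ran from -0.0096 to 0.042 over all 39, -0.033 to 0.047 for growth arrest, -0.13 to 0.033 for BH3-only, -0.0096 to 0.051 for death receptor and -0.12 to 0.039 for repair genes. Estimates ran from -0.084 to 0.061 for Bbc3, -0.34 to 0.046 for Bmf, -0.051 to 0.038 for Tnfrsf1a, -0.30 to 0.045 for Sesn1, -0.0094 to 0.053 for Mcl1, -0.085 to 0.043 for Casp8 and -0.32 to 0.0041 for Plk2. Same-numbered libraries did not deviate together (correlations of -0.10, 0.083 and 0.0025). With so few libraries per group, these correlations cannot tell whether the numbers pair samples. The replicate block gave 0 calls (smallest limma adjusted p = 0.572). It cannot change an estimate or its sign here, since each replicate number holds 1 library of each group. Birc3 and Bik, at 48 reads or fewer in every library, did not pass the FPKM filter and were left out of the main fit.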
